A study of Mus musculus with 12 samples.

Results

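The genes described here are 10 regulators of pre-mRNA splicing: the SR proteins Srsf1, Srsf2, Srsf3, Srsf5, Srsf6 and Srsf7, the related proteins Tra2a and Tra2b, and the kinases Clk1 and Clk4. They were taken as a list of symbols that was chosen with earlier results of these data known. All 10 were found among the 17335 gene identifiers in the 2 count tables of the series. One table covers PSC4, mouse stellate cells of the pancreas, which are stromal cells able to become fibroblasts. The other covers KPC4, a mouse pancreatic tumour line. KPC4 donor cells received vehicle or 10 µM gemcitabine, a nucleoside analogue used as chemotherapy, for 6 h, were washed, and conditioned starvation medium for 14 h. This gave the supernatants named Control-SU and Gem-SU, in which PSC4 cells were kept for 24 h before their RNA was sequenced. For the second experiment PSC4 cells were exposed to either supernatant for 6 h, washed, and left in fresh starvation medium for 18 h, and the resulting Control-PSC-SU or Gem-PSC-SU was given to fresh KPC4 cells for 24 h. The 12 libraries form 4 groups of 3 biological replicates. All cells of a group came from 1 line, and no group received the drug alone at the recipient stage, so carried-over drug and factors released by the donor cells cannot be told apart.

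SR proteins carry RNA-binding domains and a tail rich in arginine and serine, and they help the spliceosome to recognise exons. Clk kinases phosphorylate that tail, which moves SR proteins out of nuclear speckles and changes their activity. Many genes of this family control their own level by splicing: a poison exon sends part of the transcript to nonsense-mediated decay, and Clk1 and Clk4 transcripts are known to be held in part as nuclear RNA with retained introns. The deposited counts are per gene, so coding, decay-prone and intron-retaining transcripts of a gene were added together and were not separated here.

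The total count lay between 29559414 and 38138356 per PSC4 library and between 26354328 and 34744150 per KPC4 library, and each of the 10 genes had at least 853 counts in every library. Of 10 fibroblast markers, 8 had over 100 counts in every PSC4 library. Of 8 epithelial markers, 6 did in every KPC4 library. In PSC4 the keratins Krt8 and Krt18 reached at most 31 and 13 counts, while Krt19 held 74 to 349 and Krt7 held 24 to 191. In KPC4 the fibroblast markers Sparc, Col3a1 and Col1a1 held 3424 to 5439, 346 to 783 and 144 to 381 counts. The markers of immune and endothelial cells summed to at most 5.45 and 4.87 CPM in any library. Levels of single genes are given as CPM, the count scaled to a common library total after TMM, a factor that centres the fold changes of most genes. The sums of markers are CPM of the plain library total, without TMM.

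In PSC4, 9 of the 10 genes were higher with Gem-SU than with Control-SU, between 1.64-fold for Srsf6 and 4.01-fold for Srsf7. Srsf5 was the exception, at 1.01-fold. Clk4 and Clk1 were 3.28-fold and 2.76-fold higher, Tra2a and Tra2b 2.57-fold and 2.50-fold. No member was lower. The quasi-likelihood test of edgeR was adjusted by Benjamini-Hochberg over all 13347 genes tested, and 46.3% of these passed an adjusted p of 0.05, 24.3% as higher and 22% as lower. The median log2 fold change of the 10 genes was 1.20, and that of all genes tested was -0.0032. The 9 genes' groups did not overlap, which held for 29.3% of all genes in the higher direction.

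Srsf7, an SR protein with a zinc knuckle that also takes part in mRNA export, had the largest difference of the 10. The control libraries held 127, 109 and 127 CPM, and the Gem-SU libraries held 514, 483 and 459 CPM. All Gem-SU libraries were high, and the spread within either group was small beside the gap. The log2 fold change was 2.00 with a standard error of 0.15 (adjusted p = 6.13e-05).

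Srsf2, which stays mostly in the nucleus and binds exonic enhancers, held 207, 157 and 178 CPM in control libraries and 492, 338 and 312 CPM with Gem-SU. Replicate 1 was the highest library in both groups, and the groups were apart. Its log2 fold change was 1.08 (SE 0.21, adjusted p = 0.00371). The annotated span of Srsf2 overlaps Mettl23 and Mfsd11 on the opposite strand, and no source used here says whether the counting used strand, so its level is uncertain to that extent.

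Srsf1, among the first SR proteins described and one that shuttles between nucleus and cytoplasm, held 328, 300.3 and 321 CPM with Control-SU and 600.0, 596 and 574 CPM with Gem-SU. Both groups were tight and lay far apart, and the log2 fold change was 0.90 (SE 0.14, adjusted p = 0.00143). An annotated antisense gene, Gm11508, overlaps Srsf1.

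Srsf3, the smallest SR protein and, like Srsf7, an adaptor for mRNA export, held 318, 223 and 280 CPM in control libraries and 554, 473 and 425 CPM with Gem-SU. The lowest Gem-SU library was above the highest control library, with a log2 fold change of 0.82 (SE 0.19, adjusted p = 0.00752).

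Srsf6 and Srsf5 both belong to the SR proteins that carry a pair of RNA recognition motifs; the first passed the test and the second did not. Srsf6 held 215, 159 and 169 CPM with Control-SU against 322, 281 and 287 CPM with Gem-SU, groups that did not overlap. Its log2 fold change was 0.71 (SE 0.16, adjusted p = 0.00798), and without Control-SU replicate 3 it was 0.63 and just missed the threshold (adjusted p = 0.0503). Srsf5 held 193, 142 and 138 CPM with Control-SU and 193, 153 and 133 CPM with Gem-SU, so the groups lay on top of each other. Its log2 fold change was 0.01, with a 95% interval from -0.43 to 0.46 (adjusted p = 0.958). The upper end of that interval lies below the fold changes of the other 9 genes. With upper-quartile scaling Srsf5 stood at -0.12.

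Tra2a and Tra2b are SR-like proteins that bind GAA-rich enhancers and are closely related paralogs. Tra2a held 100.2, 139 and 113 CPM in the control libraries and 290, 305 and 309 CPM in the Gem-SU libraries. For Tra2b the control libraries held 122, 119 and 107 CPM, and the Gem-SU libraries held 305, 281 and 286 CPM. Every Gem-SU library exceeded every control library for both genes, and their log2 fold changes of 1.36 (SE 0.16, adjusted p = 0.000394) and 1.32 (SE 0.14, adjusted p = 0.00022) differed by less than their standard errors. An annotated gene on the opposite strand, Gm43980, overlaps Tra2a.

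Clk1 and Clk4, kinases of SR proteins, had the lowest levels per transcript length of the 10 genes in control medium. Clk1 held 36.7, 68.2 and 47.5 CPM with Control-SU and 109, 137 and 174 CPM with Gem-SU. Clk4 held 24.7, 38.9 and 29.2 CPM against 88.1, 106 and 111 CPM. Control-SU replicate 2 was the highest control library for both kinases, yet it stayed below all Gem-SU libraries. The log2 fold change was 1.46 for Clk1 (SE 0.26, adjusted p = 0.00217) and 1.71 for Clk4 (SE 0.20, adjusted p = 0.000329). Clk4 overlaps BC049762 on the opposite strand and Gm25082 on its own, which leaves its counts uncertain in the same way as those of Srsf2.

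**Figure D1:**
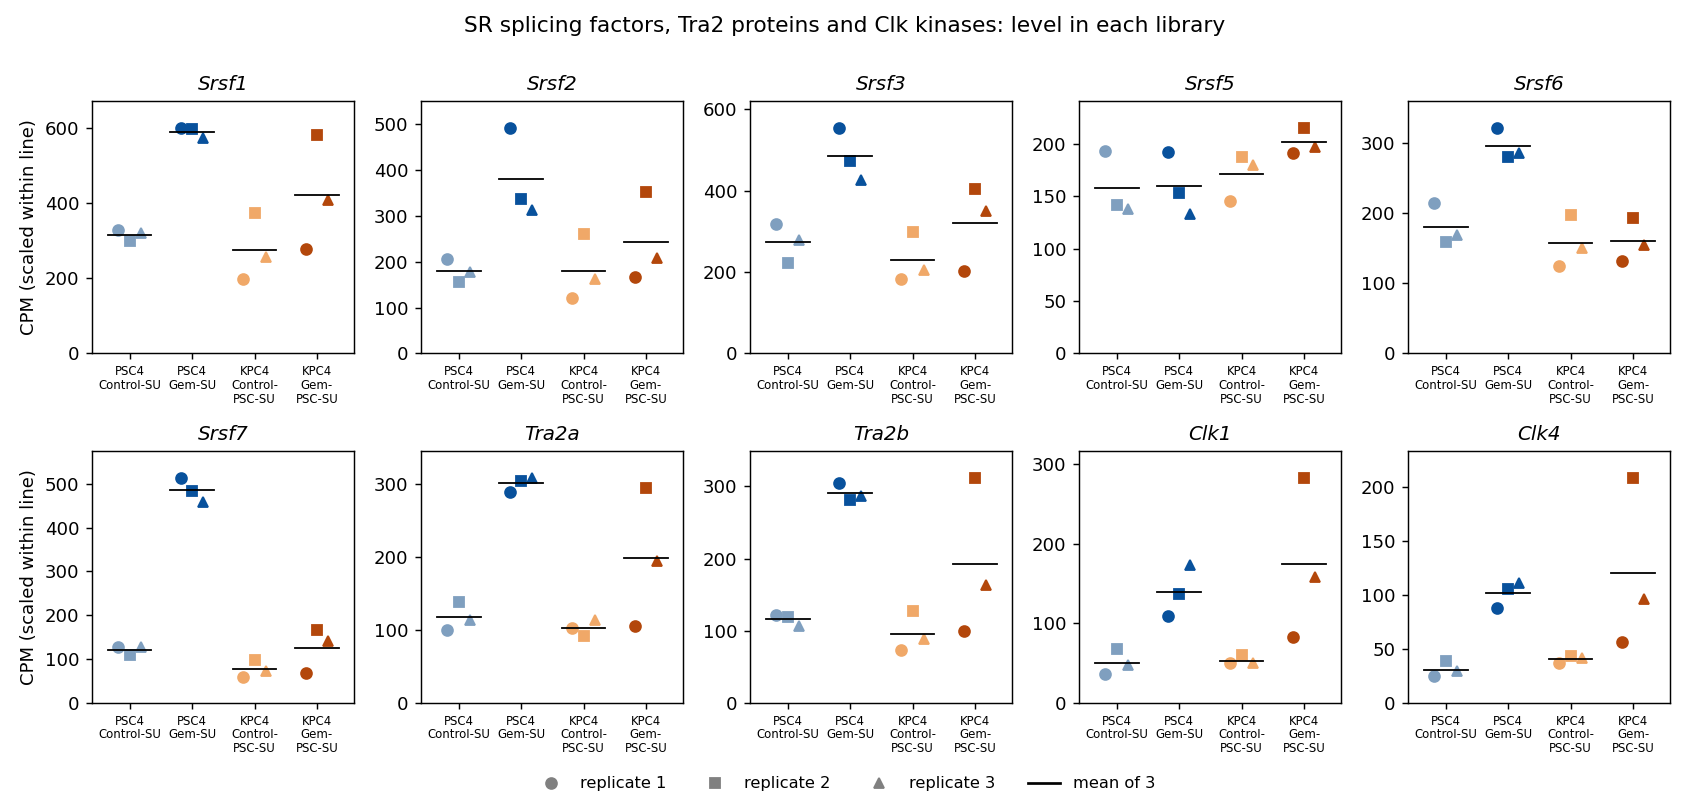
Each panel plots the CPM of 1 gene, scaled within each line, in the 12 libraries; symbols stand for the replicate number, and bars for the mean of 3. In PSC4 all genes but Srsf5 show Gem-SU libraries above all control libraries, and in KPC4 the replicate 2 libraries stand highest for most genes, up to 283 CPM for Clk1 with Gem-PSC-SU.

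Other features of the PSC4 libraries moved with the medium. The fibroblast markers summed to 6696 to 8757 CPM with Control-SU and 2402 to 3904 CPM with Gem-SU, and the epithelial markers to 3.58 to 6.14 CPM and 10.2 to 15.0 CPM. The endothelial markers summed to 0.616 to 1.44 CPM with Control-SU and 2.73 to 4.87 CPM with Gem-SU, also with no overlap. Mitochondrial transcripts made up 4.07% to 7.28% of counts with Control-SU and 2.17% to 3.53% with Gem-SU. Their part in the rise of the 9 genes was not tested. In bulk RNA from whole wells, a change in the share of cells and a change in RNA per cell cannot be told apart. With the replicate number as a block 9 members were again higher, where 54.4% of all genes were called and 27.9% as higher.

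In KPC4, all 10 genes had a log2 fold change above 0 for Gem-PSC-SU against Control-PSC-SU (Srsf6 turned to -0.053 with upper-quartile scaling and to -0.0026 with the plain library total). None passed the adjusted threshold in edgeR's test of the KPC4 libraries alone without the replicate block. edgeR's test called 0 of 13236 genes (0%) there, and DESeq2 called 822 genes (5.95%), of which Clk1 and Clk4 were the members. At an unadjusted p under 0.05 edgeR counted 2251 genes (17%), 1448 of them higher (10.9%), with 4 of the 10 members among the latter: Clk1, Clk4, Tra2a and Tra2b. The median log2 fold change of the 10 genes was 0.66, against -0.02 over all genes. The groups did not overlap for Clk1, Clk4 and Srsf5, which is 3 of 10 beside 11.8% of all genes in that direction.

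Clk1 had the largest difference, with 49.8, 59.7 and 50.5 CPM in the control libraries and 83.2, 283 and 159 CPM in the Gem-PSC-SU libraries. Clk4 held 36.7, 43.3 and 41.7 CPM against 56.6, 209 and 96.8 CPM. For both kinases the control libraries lay close together and the Gem-PSC-SU libraries were all higher but widely spread. The log2 fold changes were 1.72 for Clk1 (SE 0.38, adjusted p = 0.124) and 1.57 for Clk4 (SE 0.41, adjusted p = 0.146).

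Tra2a held 102, 92.5 and 114 CPM with Control-PSC-SU and 106, 295 and 194 CPM with Gem-PSC-SU. Tra2b held 73.0, 127 and 88.0 CPM against 99.97, 312 and 164 CPM. Replicate 1 with Gem-PSC-SU lay within the control range for both Tra2 genes, and the other Gem-PSC-SU libraries lay above it. The log2 fold changes were 0.95 (adjusted p = 0.212) and 1.00 (adjusted p = 0.250).

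Among the SR proteins, Srsf7 held 58.4, 96.9 and 73.5 CPM in the control libraries and 67.8, 167 and 140.2 CPM with Gem-PSC-SU, with a log2 fold change of 0.71 (adjusted p = 0.315). Srsf1 held 199, 373 and 257 CPM against 278, 581 and 409 CPM, at 0.61 (adjusted p = 0.352). In both genes replicate 1 of Gem-PSC-SU lay within the control range. Srsf3 held 183, 299 and 206 CPM against 203, 404 and 351 CPM, at 0.48 (adjusted p = 0.417). Srsf2 held 121, 260.2 and 161 CPM against 167, 353 and 208 CPM, at 0.43 (adjusted p = 0.547). For Srsf3 replicate 1 of Gem-PSC-SU lay within the control range, and for Srsf2 replicates 1 and 3 did.

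Srsf5 had not passed the test in PSC4. In KPC4 it held 146, 188 and 179.7 CPM in control libraries and 192, 215 and 197 CPM with Gem-PSC-SU. Its groups were apart by a narrow margin, and its log2 fold change of 0.24 had a 95% interval from -0.14 to 0.62 (adjusted p = 0.486). Srsf6 held 124, 198 and 150.5 CPM against 133, 194 and 155 CPM, almost the same values number by number. Its log2 fold change was 0.03, with an interval from -0.48 to 0.54 (adjusted p = 0.963).

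In KPC4 the library numbered 2 was the highest of its group for all 10 genes with Gem-PSC-SU and for all but Tra2a with Control-PSC-SU. Across all genes tested, same-numbered KPC4 libraries deviated from their groups together (Pearson's r of 0.428, 0.520 and 0.310), so the numbers were taken to pair them, on the values alone. Between libraries of the same number, 10, 9 and 10 of the 10 genes were higher with Gem-PSC-SU for numbers 1, 2 and 3. The single exception was Srsf6 at number 2, with a log2 ratio of -0.03. The share of all genes higher in each pair is not given here, so these counts are descriptions. Clk1 gave ratios of 0.74, 2.25 and 1.65 for the numbers in that order, and Clk4 gave 0.63, 2.27 and 1.22. Number 2 showed the largest ratio for both kinases and both Tra2 genes, and number 1 the smallest. Srsf1 gave 0.48, 0.64 and 0.67, which is far more even.

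**Figure D2:**
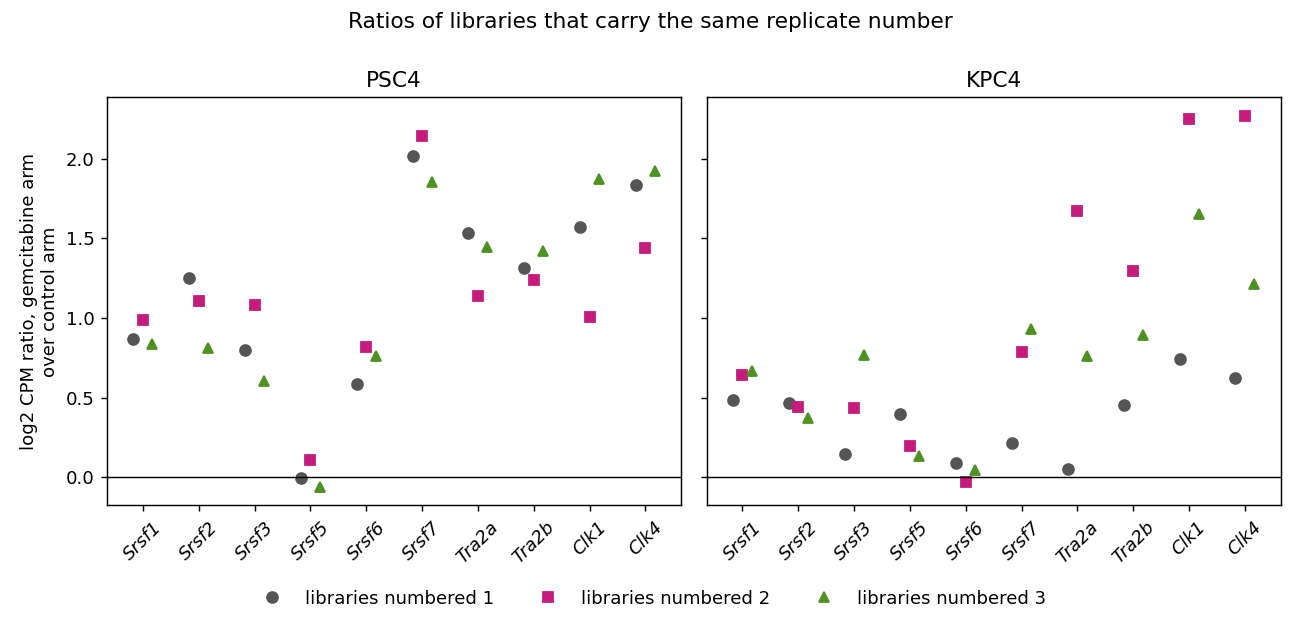
Points show the log2 ratio of CPM, gemcitabine arm over control arm, between libraries with the same replicate number, for each gene in PSC4 (left) and KPC4 (right). In KPC4 the ratios of Clk1, Clk4 and Tra2a spread widely, from 0.05 for Tra2a at number 1 to 2.27 for Clk4 at number 2, while those of Srsf1 and Srsf2 lie close together.

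With the number as a block in edgeR's test, 4 of the 10 genes were called higher in KPC4, beside 8.85% of all genes called and 6.07% called higher. These were Clk1 with a log2 fold change of 1.55 (SE 0.28, adjusted p = 0.0252), Clk4 with 1.37 (SE 0.31, adjusted p = 0.0467), Tra2b with 0.88 (SE 0.17, adjusted p = 0.0254) and Srsf1 with 0.60 (SE 0.12, adjusted p = 0.0253). Srsf7 at 0.65 (adjusted p = 0.0527) and Srsf2 at 0.43 (adjusted p = 0.0610) were just outside the threshold. The blocked test was not repeated with single libraries left out. In the test without the block, which called none of the 10 with all libraries, omitting Gem-PSC-SU replicate 1 gave calls for Clk1, Clk4, Tra2a, Tra2b and Srsf7, with Clk1 at 2.05. That omission raised the count of all genes from 0 to 1129 (8.3%), 858 of them higher. Omitting Gem-PSC-SU replicate 2 again gave none, with Clk1 at 1.18 and Clk4 at 0.92. When both libraries numbered 2 were left out, a choice made after seeing the data, none of the 10 was called, with Clk1 at 1.30 (adjusted p = 0.0936) and Clk4 at 1.00 (adjusted p = 0.154). In these libraries the epithelial markers summed to 5997 to 7453 CPM in the control group and 5537 to 7477 CPM with Gem-PSC-SU, the fibroblast markers to 155 to 217 CPM and 115 to 198 CPM, and both ranges overlapped.

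**Figure D3:**
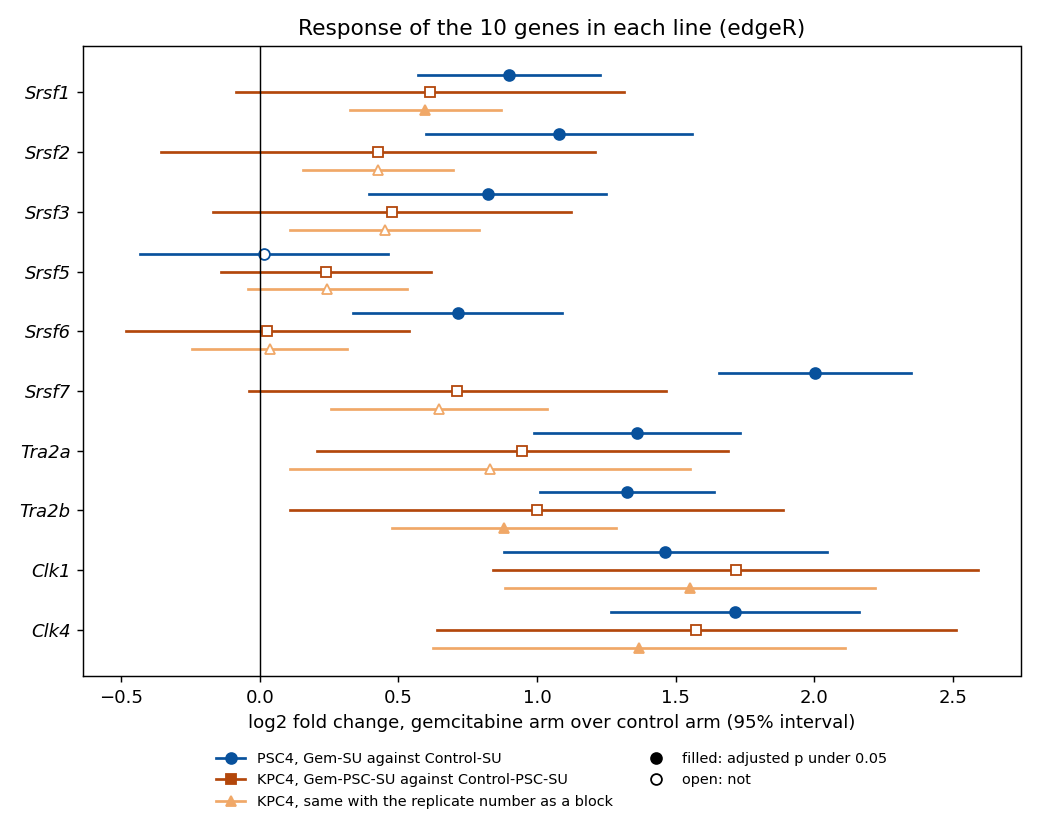
Points are log2 fold changes of the gemcitabine arm over the control arm from edgeR, with 95% intervals, for PSC4, for KPC4, and for KPC4 with the replicate number as a block; filled points have an adjusted p under 0.05. Srsf7 shows the widest gap between lines, 2.00 in PSC4 against 0.71 in KPC4. For Clk1 and Clk4 the PSC4 interval lies within the wider KPC4 interval without the block.

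The responses of the lines were compared by the difference of the log2 fold changes, PSC4 minus KPC4, in 1 fit of all 12 libraries and 13632 genes. None of the 10 genes passed, where 9.85% of all genes did, 4.75% as higher and 5.1% as lower. At an unadjusted p under 0.05 there were 2 members, beside 25.5% of all genes. DESeq2 called 1 member, Srsf7, beside 15.6% of all genes. Srsf7 came nearest in edgeR's test, at 1.25 (SE 0.38, adjusted p = 0.0568), followed by Srsf6 at 0.64 (SE 0.29, adjusted p = 0.180). The lines' responses in Clk1 and Clk4 differed by -0.29 (95% interval -1.34 to 0.76) and 0.10 (95% interval -0.93 to 1.14), intervals wide enough to hold a difference of either sign. In PSC4 same-numbered libraries deviated together for number 1 (r = 0.557) but hardly for numbers 2 and 3 (-0.04 and 0.10). The block therefore has a less even footing there than in KPC4. With the replicate number as a block, 21.9% of all genes were called, 9.95% as higher. Srsf7 at 1.31 (adjusted p = 0.00185), Srsf6 at 0.64 (adjusted p = 0.0262) and Srsf2 at 0.58 (adjusted p = 0.0451) were then among them.

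In control medium none of the 10 genes was called between PSC4 with Control-SU and KPC4 with Control-PSC-SU, although 42.9% of all genes were, 22.3% higher and 20.6% lower in PSC4. At an unadjusted p under 0.05, which 50.4% of all genes met, Srsf7 was the only member, at 0.66 on the log2 scale (SE 0.27, adjusted p = 0.0662). DESeq2 called it as well (adjusted p = 0.0493), among 47.2% of all genes. With the replicate block, which called 52.1% of all genes, it was 0.68 (adjusted p = 0.00268). The other 9 lay between -0.40 for Clk4 (95% interval -1.14 to 0.34) and 0.26 for Tra2b (95% interval -0.41 to 0.94), so that moderate differences in either direction remain possible. The lines also received different media, and line and medium cannot be told apart here.

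To compare levels between genes, CPM scaled over all 12 libraries was divided by the median length of each gene's coding transcripts. With Control-SU, the PSC4 order was led by Srsf2 at 113 CPM per kb ± 16.4 (SD, n = 3), Srsf1 at 109 ± 5.77, Srsf5 at 107 ± 21.2 and Srsf3 at 106 ± 19.1, which do not differ beyond their spread. Srsf6 followed at 90.5 ± 15.2 and overlapped with these, then Srsf7 at 73.6 ± 6.77 and Tra2a at 66.3 ± 10.6, which overlapped with each other. Tra2b at 49.2 ± 3.32 lay below the range of Tra2a, and Clk1 at 28.5 ± 8.77 and Clk4 at 20.5 ± 4.63 closed the order with overlapping ranges.

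With Gem-SU, Srsf7 moved from rank 6 to rank 1 in PSC4, at 285 CPM per kb ± 16.0, and overlapped in range only with Srsf2, at 231 ± 58.5. Srsf5 moved from rank 3 to rank 8, at 104 ± 19.7 after 107 ± 21.2. Clk1 and Clk4 kept ranks 9 and 10, at 76.4 ± 17.6 and 65.1 ± 7.73. In KPC4 the control order was led by Srsf5 at 116 ± 15.5 and Srsf2 at 114 ± 46.2 and also ended with Clk1 at 30.2 ± 3.37 and Clk4 at 27.0 ± 2.38. With Gem-PSC-SU the KPC4 values ran from 153 ± 58.1 for Srsf2 to 76.2 ± 30.2 for Srsf7, and the ranges of first and last came close, 107 to 218 against 42.2 to 99.9 CPM per kb.

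**Figure D4:**
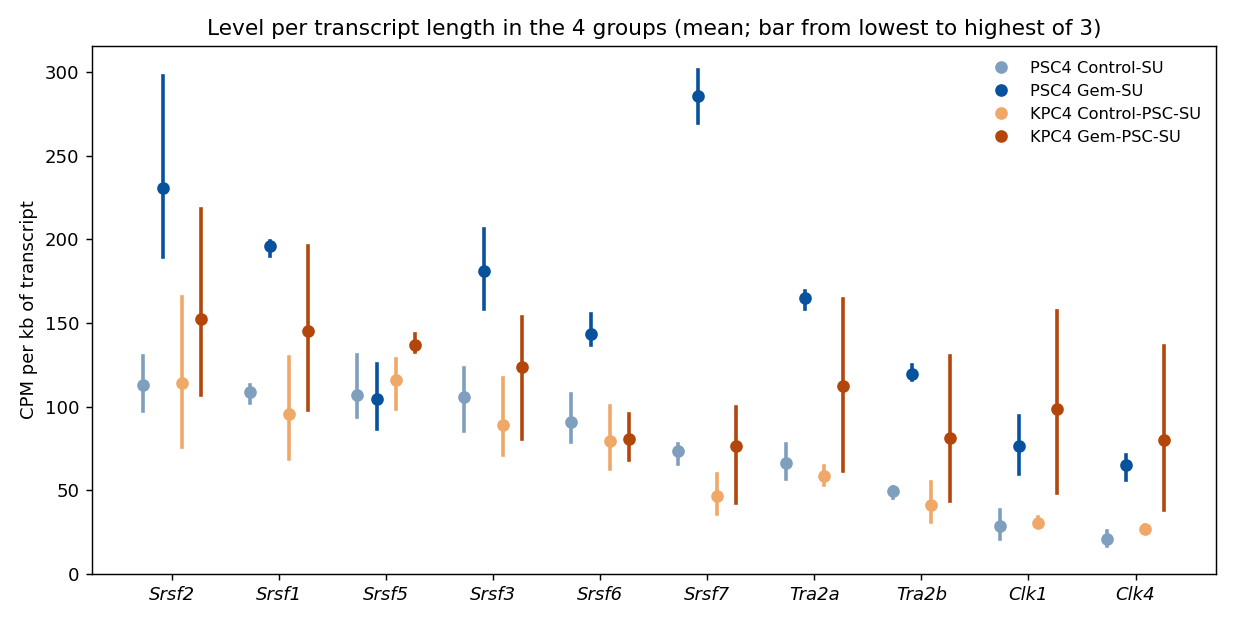
Points are mean CPM per kb of transcript in each group, on a scale common to the 12 libraries, and bars run from the lowest to the highest of 3 libraries; genes are ordered by their level in PSC4 with Control-SU. Srsf7 with Gem-SU stands highest at 285, and Clk1 and Clk4 are lowest in both control groups.

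The genes differed in how closely they followed each other over the 12 libraries, taken as log2 CPM centred within each line. These values share libraries and the contrast of media and are descriptions. Pearson's r was highest for Clk1 with Clk4, at 0.984, for Tra2a with Clk4, at 0.980, and for Srsf1 with Tra2b, at 0.980. It was lowest for Srsf5 with Tra2a, at 0.124, and with Clk1, at 0.133. Among 9402 genes, the gene most like both Clk1 (r = 0.992) and Clk4 (r = 0.990) was Rbm39, a splicing factor related to the U2AF family. The closest to Srsf1 was Tyms, thymidylate synthase, at 0.991, to Srsf3 Ddx39, an RNA helicase, at 0.983, and to Srsf2 Uba2, a subunit of the SUMO-activating enzyme, at 0.971. For Srsf7 it was Slc25a33, a mitochondrial carrier of pyrimidine nucleotides, at 0.991, for Tra2a Ccdc174 at 0.983, and for Tra2b Rprd1b at 0.993. Srsf6 was most like Mrto4 at 0.962, and Srsf5 had the weakest closest match, Stx6 at 0.934.

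Other genes of the splicing and decay machinery were taken from lists, whose counts in PSC4 stand beside 24.3% of all genes called higher and 22% called lower. Of the other SR proteins, 3 of 4 tested were higher in PSC4 with Gem-SU and none lower: Srsf4 at 1.00 (adjusted p = 0.00102), Srsf11 at 0.88 and Srsf10 at 0.66 on the log2 scale, with Srsf9 at -0.21 (adjusted p = 0.624). Their median was 0.77. Of 8 other kinases and transport factors of SR proteins, 2 were higher and 1 lower, with a median of 0.09. Prpf4b, a kinase of the spliceosome, rose by 0.94 and Srpk1, the main cytoplasmic SR kinase, by 0.63, while Dyrk1b was at -1.34 (adjusted p = 0.00205). Clk2, a paralog of Clk1 and Clk4, was at -0.39 (adjusted p = 0.107).

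Of 12 SR-related proteins, 8 were higher in PSC4 and none lower, with a median of 0.72. The smallest p-values belonged to Srek1 at 1.23, Luc7l3 at 1.19, Rbm39 at 0.94 and Rnps1, a component of the exon junction complex, at 0.75. Of 15 hnRNP proteins, which often oppose SR proteins at splice sites, 7 were higher and 2 lower, with a median of 0.31. Hnrnph1 rose by 0.97 and Ptbp1, the polypyrimidine tract binding protein, by 0.86, while Hnrnpr was at -0.78 (adjusted p = 0.00241). Of 21 core spliceosome genes, 4 were higher and 2 lower around a median of 0.06, with Sf3a1 at 0.95 and Snrpa at -0.80. With the replicate block 7 core genes were higher and 4 lower, and the number of lower ones was 4 with DESeq2 and 1 with the plain library total or with no low-count filter. Of 10 genes of nonsense-mediated decay, 7 were higher and none lower, with a median of 0.61. Upf3b at 0.93, Smg5 at 0.78 and Upf1, the central helicase of the pathway, at 0.65 were among them. Upper-quartile scaling lowered the median of all genes in PSC4 by more than 0.1, to -0.13, and left 4 hnRNP genes, 3 decay genes and 1 kinase called higher, with 2 kinases and 4 core genes called lower. Under that scaling 9 of the 10 members were called, with a median of 1.07.

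In KPC4 no gene of any of these lists passed edgeR's test without the block. The medians were 0.43 for the other SR proteins, 0.05 for kinases and transport, 0.45 for SR-related proteins, 0.22 for hnRNP proteins, 0.07 for the core spliceosome and 0.41 for nonsense-mediated decay. With the replicate block, 5 of the 12 SR-related genes were called higher, beside 6.07% of all genes, among them Rbm39 at 0.90 (adjusted p = 0.0374), Srek1 at 0.84 (adjusted p = 0.0322), Luc7l3 at 0.65 (adjusted p = 0.0228) and Pnn at 0.52 (adjusted p = 0.0453). Srsf11 at 0.63 (adjusted p = 0.0493) and Hnrnph1 at 0.60 (adjusted p = 0.0280) were also called. The kinase, core spliceosome and decay lists had 0 calls with the block. DESeq2 called 3 of the 12 SR-related genes higher, beside 5.11% of all genes, and none of the other lists.

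**Figure D5:**
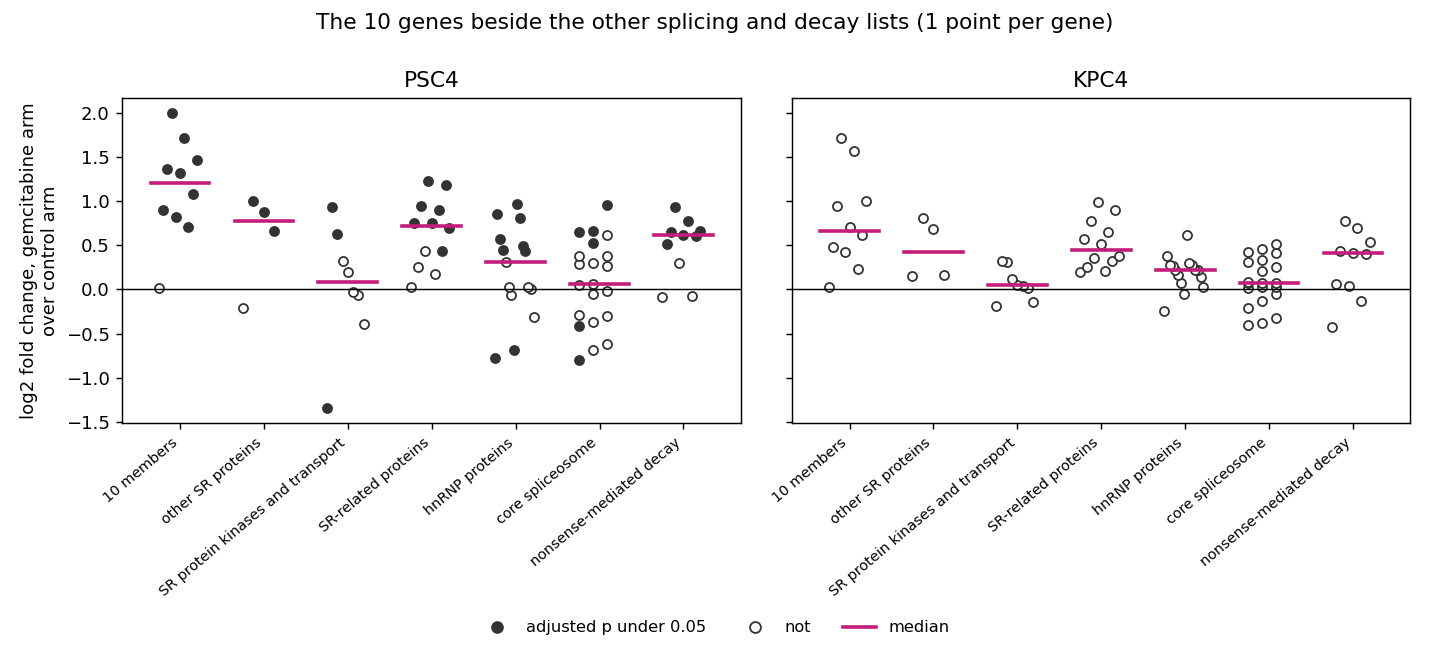
Each point is the log2 fold change of 1 gene, gemcitabine arm over control arm, in PSC4 (left) and KPC4 (right), for the 10 members and 6 other lists; filled points have an adjusted p under 0.05 and bars are medians. In PSC4 the median is 1.20 for the members and 0.06 for the core spliceosome, and in KPC4 no point is filled.

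All 10 genes share a feature of their annotation. In GENCODE M21 each of them has at least 1 transcript marked as a target of nonsense-mediated decay, as do 26.1% of 15836 coding genes in these tables, and at least 1 marked as retaining an intron, as do 52.8%. Clk1 and Clk4 have the most intron-retaining transcripts of the 10, 7 each. Tra2b and Clk4 have 3 decay-marked transcripts each. Which of these transcripts contributed to the changes was not tested, since the counts are per gene.

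The sequence before the transcription start was examined because 9 of the 10 genes rose in PSC4. Windows from RefSeq on GRCm38.p6, a build other than the GRCm39 named in the submitters' processing notes, run from 250 bases before to 50 bases after the start. They matched 9 of the 10 genes by symbol, all but Clk1. The motifs, each searched on both strands, were chosen with the results known. The cyclic AMP response element, TGACGTCA, occurred in the windows of Tra2a and Clk4, 2 of 9, and in 1.79% of all 32851 windows. The shorter TGACG, which lies within that element, occurred in 8 of 9 and in 20.8% of all windows. The GC box GGGCGG was in 8 of 9 (35.7% of all), CCAAT in 4 (37.4%), TATAAA in 2 (13.6%), the heat shock element GAANNTTC in 1 (7.86%), and the E-box CACGTG (7.15%) and the AP-1 element TGANTCA (7.81%) in none. The 9 windows held 56% to 70% G and C, against a median of 52.7% over all windows, and the part of base composition in these counts was not tested.

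The 250 bases before the start are shown for 4 genes, 5′ to 3′ on the strand of the gene, with TGACG on either strand, and the whole element where present, in capitals. Tra2a (chr6:49264053-49264302, minus strand) and Clk4 (chr11:51262864-51263113, plus strand) are shown because they hold the whole element. Srsf7 (chr17:80207306-80207555, minus strand) is shown because it had the largest difference in PSC4 and holds no TGACG, and Srsf5 (chr12:80945249-80945498, plus strand) because it did not pass the test there and holds one.
Tra2a: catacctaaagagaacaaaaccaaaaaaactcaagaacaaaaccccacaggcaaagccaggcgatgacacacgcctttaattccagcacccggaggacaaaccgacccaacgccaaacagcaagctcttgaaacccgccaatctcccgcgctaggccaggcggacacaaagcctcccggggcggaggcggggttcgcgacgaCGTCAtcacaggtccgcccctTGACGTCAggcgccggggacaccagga
Clk4: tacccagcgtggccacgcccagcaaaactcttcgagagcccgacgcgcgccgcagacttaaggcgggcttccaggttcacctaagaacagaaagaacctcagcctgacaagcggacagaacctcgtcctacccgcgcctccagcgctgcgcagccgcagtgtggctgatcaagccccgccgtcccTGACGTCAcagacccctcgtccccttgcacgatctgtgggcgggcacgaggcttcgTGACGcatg
Srsf7: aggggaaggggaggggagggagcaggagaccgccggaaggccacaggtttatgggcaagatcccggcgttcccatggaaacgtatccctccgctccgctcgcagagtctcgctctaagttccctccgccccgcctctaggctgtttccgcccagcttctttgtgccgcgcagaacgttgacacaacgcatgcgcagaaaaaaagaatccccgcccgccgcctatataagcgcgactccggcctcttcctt
Srsf5: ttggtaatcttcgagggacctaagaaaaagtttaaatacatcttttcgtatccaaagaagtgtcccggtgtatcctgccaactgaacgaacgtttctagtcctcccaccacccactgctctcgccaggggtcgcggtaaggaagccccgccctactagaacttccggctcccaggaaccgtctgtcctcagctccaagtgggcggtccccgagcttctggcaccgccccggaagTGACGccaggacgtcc
A match of letters describes the window and does not show that a factor bound there.

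The authors' deposited table gave the same sides of the threshold for these genes in PSC4. It lists 9 of the 10 with an adjusted p under 0.05, all higher, beside 42.9% of its genes and 22.4% as higher, and Srsf5 at 0.30 with an adjusted p of 0.378. For KPC4 the authors' deposited table lists Clk1 at 1.93 (adjusted p = 0.000189) and Clk4 at 1.41 (adjusted p = 0.0124) and no other member, beside 5.17% of its genes and 4.49% as higher. The fold changes were not the same as those of DESeq2 on the deposited counts. In the authors' deposited table for PSC4, Clk4 was lower by 0.39 on the log2 scale (1.32 against 1.71) and Srsf2 was higher by 0.33 (1.40 against 1.07). Both lie outside the range from -0.31 to 0.31 that holds the differences of 12343 genes between the 5th and the 95th percentile. The cause of these differences was not tested.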

How the data were processed

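RNA of 12 cultures was sequenced with a NovaSeq X Plus instrument, per the labels' protocols. The submitters' processing notes name FastQC, Trim Galore 0.6.10, cutadapt 5.2, Salmon, R 4.5.1, DESeq2 and the build GRCm39, without roles. The authors deposited raw counts per gene and library, whole numbers with no symbols, 1 table per line. For each line the authors deposited a further table of log2 fold changes, p-values and adjusted p-values by symbol, printed here as theirs. Titles gave each sample its group, and the number of unused sample columns was 0.

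Symbols, transcript types and lengths came from GENCODE M21 (99.7% of identifiers matched in each table), and promoter windows from RefSeq. CPM was computed from the deposited counts with TMM factors, except for the sums of markers, which used plain library totals. Each line had its own fit in edgeR 4.0.16 under R 4.3.3 (filterByExpr, TMM, robust quasi-likelihood test, Benjamini-Hochberg over all genes tested, threshold 0.05), and the differences between lines in 1 fit of 12 libraries. DESeq2 1.42.0 was an alternative. Likeness used genes of at least 10 CPM on average and log2(CPM + 0.5). Replicate pairs were compared by chi-square for libraries deposited more than once, and none was found.

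Replicate numbers are shared across groups by the labels. In KPC4 same-numbered libraries deviated together (0.428, 0.520 and 0.310), in PSC4 not all did (0.557, -0.04 and 0.10). Blocked values stand beside the others where they change the call of a member or move a list's count by over 1.5 times. The members and lists were chosen with earlier results of these data known. The text names all 10 members, and from each other list at most the 4 genes with the smallest p in each line. Alternatives were other scalings, filters, robust estimation off, the block, DESeq2, 1 fit of both lines, and leaving out each library. The omission of both KPC4 libraries numbered 2 and DESeq2 with the block were added after seeing the data.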

Additional observations from a re-analysis of the deposited data

Results flagged for a closer look

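The difference of response between the lines, PSC4 minus KPC4, was past the threshold for 3 of the 10 genes in edgeR's test with the replicate number as a block. In that test 21.9% of all genes were past it, 9.95% as higher. The difference was 1.31 on the log2 scale for Srsf7 (adjusted p = 0.00185), 0.64 for Srsf6 (adjusted p = 0.0262) and 0.58 for Srsf2 (adjusted p = 0.0451). Without the block none of the 3 passed (adjusted p = 0.0568, 0.180 and 0.407). The block has a less even footing in PSC4, where same-numbered libraries deviated together for number 1 (r = 0.557) but hardly for numbers 2 and 3 (-0.04 and 0.10). In PSC4 all 3 Gem-SU libraries were above all control libraries for each gene. In KPC4 the log2 ratios of same-numbered libraries were 0.22, 0.79 and 0.93 for Srsf7, 0.09, -0.03 and 0.05 for Srsf6, and 0.47, 0.44 and 0.37 for Srsf2.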

How the results depend on the processing

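In PSC4, 9 members were called higher in every alternative except without Control-SU replicate 3 (8, Srsf6 lost). The count of all genes ran from 4061 (29.8%, without Gem-SU replicate 2) to 6826 (49.9%) when 1 library was left out. Upper-quartile scaling gave 2686 higher and 3584 lower in PSC4, against 3241 and 2936. In KPC4 the count of all genes was 0, and it was 1 with the plain library total, 1171 with the replicate block, 822 with DESeq2, 610 in 1 fit of both lines, 244 without both libraries numbered 2, 2133 with DESeq2 and the block, and 0 to 1129 with 1 library left out (1129 when Gem-PSC-SU replicate 1 was omitted, 174 when Control-PSC-SU replicate 2 was). Members called higher in KPC4 were 4 with the replicate block, beside 6.07% of all genes as higher, and 2 with DESeq2, beside 5.11%. In 1 fit of both lines they were 2, where 4.47% of all genes were called in either direction. DESeq2 with the block, added after seeing the data, gave 8. That fit called 2133 of the 15309 KPC4 gene identifiers, 1402 of them higher. With 1 library left out, the members called higher were 0 to 5, the 5 where 8.3% of all genes were called in either direction. For the difference of response all genes called numbered 1343 (9.85%), 2988 (21.9%) with the replicate block, 2145 (15.6%) with DESeq2 and 610 to 1993 (4.41% to 14.5%) with 1 library left out. The plain library total gave 786 higher and 529 lower there, against 648 and 695. Of the members 3 were called with the block, 0 to 1 with 1 library left out, and 1 (Srsf7) with DESeq2. Srsf7 was also the 1 member called with DESeq2's size factors, upper-quartile scaling, the plain library total or at least 10 counts per library. In these settings 9.8%, 9.7%, 9.65% and 12% of all genes were called, in that order. In control medium the block and DESeq2 each called 1 member, Srsf7 (beside 52.1% and 47.2% of all genes). Leaving out 1 library gave 0 to 1 members there, where 35.8% to 45.4% of all genes were called. The block changed no other call of a member.

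Values near 0 changed sign. Srsf5 in PSC4 was -0.12 with upper-quartile scaling, -0.033 in 1 fit of both lines and -0.14 to 0.19 with 1 library left out. Srsf6 in KPC4 was -0.053 with upper-quartile scaling, -0.0026 with the plain library total and -0.13 to 0.24 with 1 library left out. Between lines in control medium Srsf2 was 0.056 with the block. Leaving out 1 library gave -0.30 to 0.36 for Srsf2 there, -0.41 to 0.10 for Clk1, -0.013 to 0.28 for Tra2a, -0.065 to 0.47 for Srsf1 and -0.016 to 0.40 for Srsf6. For the difference of response it gave -0.64 to 0.22 for Clk1, -0.25 to 0.73 for Clk4, -0.043 to 0.52 for Srsf1 and -0.037 to 0.80 for Tra2b. The cause of these moves was not tested. Each member had at least 853 counts in every library, and the effect of depth was not tested.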
